A study of Homo sapiens with 5 samples.

Results

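Basal layer keratins KRT5, KRT14, KRT15 and KRT17 were described in tumor cells at 5 stages, from the parental culture to lung colonies at 4 months. The 4 genes, of 33538 in the count tables, were chosen by their levels over the stages in earlier readouts of these same libraries, so those levels are given here as a description. KYSE30 is an established human cell line of esophageal squamous cell carcinoma (ESCC), labelled here with luciferase and green fluorescent protein (KYSE30-Luc-GFP). The libraries were the in vitro parental culture and cells sorted by GFP from lungs of NOD SCID mice, which had received them by the tail vein 6 h or 48 h before (early), or 2 or 4 months before (late). The mice were 4 to 5 weeks old at injection and lack functional B and T cells. Lung cells of several mice were pooled at 6 h, 48 h and 2 months, a single mouse gave the 4-month cells, and no label ties a cell to its mouse. Each stage is therefore 1 library without a replicate, and no test was made between stages or between groups of cells.

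Keratins build the intermediate filaments of epithelial cells, and each filament needs a type I and a type II partner. In the basal layer of stratified squamous epithelia, such as that of the esophagus, KRT5 is the type II partner and KRT14 its main type I partner. KRT15 is another type I keratin of basal cells, also known from stem cells of the hair follicle bulge. KRT17 is a type I keratin of hair follicles and of some basal cells, and it is induced by wounding and common in squamous carcinomas.

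KRT5 (ENSG00000186081) is a protein-coding gene on the minus strand at chr12:52514575-52520530 of GRCh38, beside other type II keratin genes. KRT15 (ENSG00000171346, chr17:41513745-41522529), KRT14 (ENSG00000186847, chr17:41582279-41586895) and KRT17 (ENSG00000128422, chr17:41619442-41624842) lie in the type I cluster, also on the minus strand, within 111 kb of each other. The assay counts unique molecular identifiers (UMIs), each standing for 1 captured RNA molecule, near the 3′ end of transcripts. Of the 451 windows of 50 bases in the last 500 bases of the transcript, 80 (17.7%) of KRT14 and 20 (4.43%) of KRT17 also occurred in a transcript of another gene, mostly KRT16 or KRT17 pseudogenes and, for KRT17, KRT16 itself. No window of 90 bases was shared for any of the 4 genes, and KRT5 and KRT15 shared none of 50 bases either. Only human transcripts were searched.

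The 250 bases before the RefSeq start of KRT5, the member whose level differed most between 48 h and 2 months, follow (chr12:52520395-52520644, minus strand, RefSeq promoter table on GRCh38.p14). Of the 4 members, 1 was matched to this table, and KRT14, KRT15 and KRT17 are named only. The capitals mark CATG, the core of a p53 family half-site, and ATAAAA, a run like that of many core promoters.
KRT5 promoter: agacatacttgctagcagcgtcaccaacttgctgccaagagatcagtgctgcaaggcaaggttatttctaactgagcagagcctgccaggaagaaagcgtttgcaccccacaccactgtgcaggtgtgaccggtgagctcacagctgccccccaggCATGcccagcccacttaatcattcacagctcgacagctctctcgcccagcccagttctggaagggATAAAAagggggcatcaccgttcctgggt
In this window CATG occurred once at position -94, ATAAAA once at -29 and CACCC once at -147, counted from the start and on either strand. In all 35116 promoter windows of the table, CATG was found in 47.6%, ATAAAA in 14.8% and CACCC in 54.7%. The letters TGANTCA (found in 6.57% of the windows), CATGNNNNNNCATG (0.296%), GCCNNNGGC (19.8%), TATAAA (10.7%) and GGGCGG (42.6%) were not in the KRT5 window. CATG also forms each end of CATGNNNNNNCATG, so these motifs overlap. Such matches describe letters, not bound sites.

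After the filter of the study (200 to 8000 genes, no fewer than 1000 UMIs, and mitochondrial UMIs up to 15%), 19986 of 26712 barcodes remained, with 1149 (48 h) to 9059 (parental) cells and 32540023 (6 h) to 204864006 (parental) UMIs per library. Median UMIs per cell ran from 12979 at 6 h to 39076 at 48 h. The parental culture held a small class of 1300 and a large class of 7664 cells, called by UMIs of genes that include no keratin (S100A6, S100A14, CST6 and others against BEX1, BEX2, UCHL1 and others). Outside culture, large-class cells numbered 591 of the 3322 cells at 2 months, 2 at 6 h and 0 in the other libraries, so each stage is compared with the whole culture and with its small class. Among epithelial markers, 7 or 8 of 8 reached 5 CPM (counts scaled to a common library total) in every library, with summed levels of 1588 (parental) to 13475 (48 h) CPM. Summed levels were 2.37 to 13.6 CPM for 6 fibroblast, 0.176 to 0.729 for 5 endothelial, 1.74 to 34.2 for 6 immune, 0.0855 to 0.615 for 3 red blood cell and 1.44 to 6.39 for 5 lung epithelial genes. Markers at 0 included DCN, LUM and PTPRC at 6 h, LYZ and SFTPC at 48 h, PECAM1 and PTPRC at 2 months, and DCN at 4 months. However, 2 of 6 immune genes reached 5 CPM at 6 h, and 1 of 6 at 48 h and at 4 months. Of the 6 fibroblast genes, 1 reached it at 48 h. Counts were made for human genes only, so these markers cannot show how many mouse cells remained. Between 6 and 91 barcodes were shared by each of the 10 pairs of libraries, and early levels of KRT14 are also given without barcodes found in a late library. Lung cells were enzymatically dissociated, depleted of mouse cells and sorted, so stage and handling cannot be told apart. Neither free RNA nor doublets were removed, and their part in the values below was not tested unless a value is given.

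All 4 keratins were close to absent in culture, and their levels did not change together. KRT14 and KRT15 were the more abundant at 6 h, KRT14 stood highest at 48 h, KRT17 and KRT5 made up most of the 4 at 2 months, and KRT17, KRT5 and KRT14 were abundant at 4 months. Levels are UMIs summed over cells and scaled to CPM, with exact Poisson 95% intervals that cover counting error only. They compare captured molecules, which for a 3′ assay do not depend on transcript length.

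KRT5 stood at 0.00488 CPM in parental cells (1 UMI in all, interval 0.000124 to 0.0272), 0.522 after 6 h (17 UMIs, 0.304 to 0.836), 1.005 after 48 h (47 UMIs, 0.738 to 1.34), 556 after 2 months (551 to 562) and 1749 after 4 months (1741 to 1756). The type II basal keratin was thus nearly missing through 48 h and abundant in both late libraries, without overlap of the intervals between 48 h and 2 months. At 2 months its level was 554 times that at 48 h (416 to 754), and 2 of the 10445 genes with at least 5 CPM in either library had a larger log2 ratio. At 4 months it was 3.14 times that at 2 months (3.11 to 3.17). Large-class cells entered the 2-month level and not the 4-month level. In the 2-month small class alone KRT5 stood at 768 CPM. Against the single parental UMI, the 4-month ratio was 358228, with a counting interval of 64294 to 14149300.

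KRT14 stood at 0.0488 CPM in parental cells (10 UMIs, 0.0234 to 0.0898), 19.8 after 6 h (18.3 to 21.3), 89.0 after 48 h (86.4 to 91.8), 170 after 2 months (167 to 173) and 1006 after 4 months (1001 to 1012). In the early libraries KRT14 molecules thus far outnumbered those of its partner KRT5. At 6 h there were 643 UMIs of KRT14 and 17 of KRT5, and at 48 h 4166 and 47. Its step from 6 h to 48 h was a factor of 4.51 (4.15 to 4.90), and its step from 2 to 4 months a factor of 5.92 (5.82 to 6.03). At 2 months KRT14 stood at 235 CPM in the small class alone. From 48 h to 2 months it differed by a factor of 1.91 (1.84 to 1.98), on the log2 scale 0.92 with 1 CPM added.

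KRT17 stood at 0.488 CPM in parental cells (0.397 to 0.594), 5.38 after 6 h (4.61 to 6.24), 27.2 after 48 h (25.7 to 28.7), 4353 after 2 months (4339 to 4368) and 10139 after 4 months (10121 to 10157). At 4 months KRT17 was the most abundant of the 4 and stood at rank 5 among all 21666 genes detected, against rank 14389 of 24006 in parental cells. From 48 h to 2 months it differed by a factor of 160 (151 to 169), with 6 genes larger on the log2 scale, and from 2 to 4 months by a factor of 2.33 (2.32 to 2.34). At 2 months KRT17 stood at 6013 CPM in the small class alone. Its log2 ratio of 12.73 at 4 months over parental cells, and of 11.51 at 2 months, exceeded that of every other gene with at least 5 CPM in either library.

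KRT15 behaved differently from the other 3. It stood at 1.07 CPM in parental cells (0.937 to 1.23), 20.1 after 6 h (18.6 to 21.7), 12.6 after 48 h (11.6 to 13.6), 21.03 after 2 months (20.04 to 22.1) and 23.3 after 4 months (22.5 to 24.2). The 4 lung libraries thus lay within a narrow range, with 48 h below the others and the intervals of 6 h and 2 months overlapping. In the 2-month small class alone KRT15 stood at 28.9 CPM, above the 4-month level. KRT15 was the most abundant of the 4 in culture and the least abundant at 2 and 4 months. At 48 h it was 0.626 times its level at 6 h (0.559 to 0.701), the opposite direction to KRT14 and KRT17.

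**Figure D1:**
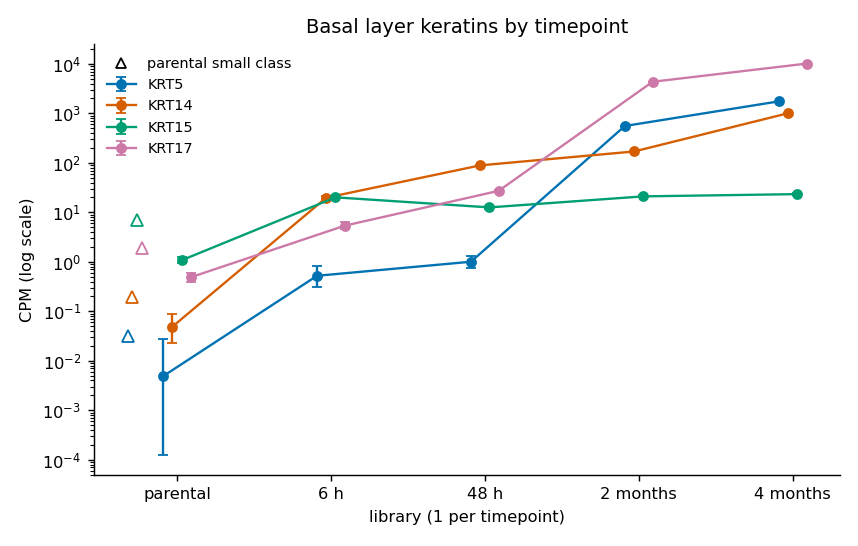
Level of each keratin in the 5 libraries, in CPM on a log scale, with exact Poisson 95% intervals as bars (counting error only) and open triangles for the parental small class. KRT15 lies between 12.6 and 23.3 CPM in all 4 lung libraries, whereas KRT5 lies at 1.005 or below until 48 h and KRT17 ends at 10139.

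Of the members with at least 5 CPM in either library, 3 of 3 were at least 2-fold higher (log2 ratio of CPM + 1 of at least 1) at 6 h over parental cells, where 17.2% of all genes were. The counts over parental cells were 3 of 3 at 48 h (19.7% of all genes) and 4 of 4 in both late libraries (10.4% at 2 months, 13.4% at 4 months). Between consecutive stages, the higher ones numbered 2 of 3 from 6 h to 48 h (3.24% of all genes), 2 of 4 from 48 h to 2 months (12.2%) and 3 of 4 from then to 4 months (3.03%). Counts that involve 2 months take in its large-class cells, which held little of these keratins. No member was at least 2-fold lower in any of these 7 comparisons, where 27.8%, 24.2%, 11.5% and 30.0% of all genes were lower than in parental cells at 6 h, 48 h, 2 and 4 months, and 1.42%, 13.0% and 9.38% were lower than at the stage before. Since these contrasts were known when the genes were chosen, nothing is read from the counts. At 4 months over parental cells the median log2 ratio was 10.34 for the 4 members and -0.44 for all genes with at least 5 CPM.

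Part of the KRT15 difference was already present within the culture. In the parental small class KRT15 stood at 6.92 CPM (216 UMIs), against 0.0231 CPM in the large class (4 UMIs), and 13.8% of small-class cells had a KRT15 UMI against 0.0522% of large-class cells, at median depths of 24755 and 22929 UMIs. KRT17 stood at 1.92 and 0.231 CPM in the same classes. The large class held 0 UMIs of KRT5 and 4 of KRT14, and the small class 1 and 6. Measured against the small class, the KRT15 log2 ratio was 1.41 after 6 h, 0.78 after 48 h, 1.47 after 2 months and 1.62 after 4 months. The 2-month ratio takes in large-class cells. In the 2-month small class alone KRT15 stood at 28.9 CPM, above the 23.3 CPM at 4 months, so no order of the late ratios is read. The other members stayed far above the KRT15 ratio, with 11.76 for KRT17, 10.73 for KRT5 and 9.72 for KRT14 at 4 months. In that comparison with the small class, 3 of 3 members were at least 2-fold higher at 6 h (10.6% of all genes), 2 of 3 at 48 h (12.9%) and 4 of 4 in both late libraries (9.55% at 2 months, 8.15% at 4 months). None was at least 2-fold lower, where 12.0%, 9.19%, 6.58% and 14.2% of all genes were.

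At 2 months the large class offered a comparison inside 1 library. All 4 keratins were concentrated in the small class. KRT17 was at 6013 CPM in 2726 small-class cells and 13.8 CPM (12.3 to 15.4) in 591 large-class cells. KRT5 was at 768 and 1.83 CPM (41 UMIs), and KRT15 at 28.9 and 0.492 CPM (11 UMIs). KRT14 was at 235 CPM in the small class and had 3 UMIs in the large class, a ratio of 1750 with a counting interval of 599 to 8486. KRT17 UMIs were found in 20.1% of large-class cells, at a median depth of 38104 UMIs, against 98.1% of small-class cells at 19218. After thinning every cell to 1000 UMIs these shares were 2.03% and 82.0%. The UMIs of KRT5 per UMI of KRT17 were 0.133 in the large class (41 and 308 UMIs) and 0.128 in the small class. This nearly equal proportion did not extend to KRT14 and KRT15. They had 3 and 11 UMIs in the large class, and 13738 and 1690 beside 351811 of KRT17 in the small class. The large-class levels depended on how the classes were drawn. With class fractions of 0.2 and 0.8 as limits, KRT17 stood at 7.03 CPM in the large class, KRT5 at 0.998 (22 UMIs) and KRT15 at 0.136 (3 UMIs). With other class genes KRT17 stood at 74.4 CPM, KRT5 at 9.02 and KRT15 at 0.941, and the small-class level of KRT17 was then 82.03 times that of the large class. The small class was the higher for all 4 keratins in each case.

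KRT14 and KRT15 were found in fewer late cells than KRT5 and KRT17, and such shares also depend on level. With cells of the 4-month library thinned to 3000 UMIs, the variance of UMIs over cells was divided by their mean. This gave 26.8 for KRT14, 24.7 for KRT17, 4.49 for KRT5 and 2.06 for KRT15. The means of thinned UMIs per cell were 2.76, 32.7, 5.32 and 0.0849 in the same order. Such a ratio rises with the mean where cells differ in level, so no grouping of the genes is read from it. At 4 months KRT17 UMIs were found in 4493 of 4499 cells (99.9%) and KRT5 UMIs in 4371 (97.2%), whereas KRT14 was found in 2046 (45.5%) and KRT15 in 1325 (29.5%). With each cell thinned to 1000 UMIs, the shares at 4 months were 95.2% for KRT17 (exact binomial interval 94.5 to 95.8), 69.1% for KRT5 (67.8 to 70.5), 20.6% for KRT14 (19.4 to 21.8) and 2.60% for KRT15 (2.16 to 3.11). The corresponding shares at 2 months were 67.6%, 32.5%, 5.60% and 2.83%, and within the small class 82.0%, 39.5%, 6.82% and 3.45%. For KRT5, KRT14 and KRT17 the thinned share was higher at 4 months than at 2 months, and for KRT15 the intervals overlapped.

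With all UMIs counted, KRT15 was found in the most cells of both early libraries and KRT5 in the fewest. At 6 h, KRT15 was found in 19.4% of cells, KRT14 in 5.67%, KRT17 in 3.22% and KRT5 in 0.613% (12 cells). At 48 h the shares were 32.2% for KRT15, 10.4% for KRT14, 9.66% for KRT17 and 1.13% for KRT5 (13 cells). The KRT15 share at 48 h exceeded that at 6 h while its CPM was lower. Thinned to 1000 UMIs the shares were 1.84% at 6 h and 0.870% at 48 h, and thinned to 3000 UMIs 4.198% and 4.29%, so no order is read from them. At 48 h the order of genes also changed with thinning. KRT14 was found in 2.96% of cells at 1000 UMIs (2.06 to 4.11), above KRT15 (0.418 to 1.59). At 3000 UMIs the KRT14 share was 5.78%, with an interval that overlapped that of KRT15. In parental cells KRT15 was found in 184 cells (2.03%), KRT17 in 58 (0.640%), KRT14 in 8 and KRT5 in 1.

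The level per cell was scaled to 10000 UMIs of that cell. At 4 months the median of KRT17 was 84.3 per 10000, with 19.1 at the 10th and 234 at the 90th percentile, and in 1944 cells (43.2%) KRT17 alone made up at least 1% of all UMIs. KRT5 had a median of 14.5 per 10000, from 3.18 to 39.1 at the same percentiles. KRT14 had a median of 0, a 90th percentile of 30.2 and a 99th percentile of 138, and a single cell held 1280 UMIs of it. KRT14 was thus a keratin of a minority of cells with high levels, and KRT5 and KRT17 were graded over nearly all cells. KRT15 had a median of 0 and a 90th percentile of 0.707, a low level in every percentile.

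**Figure D2:**
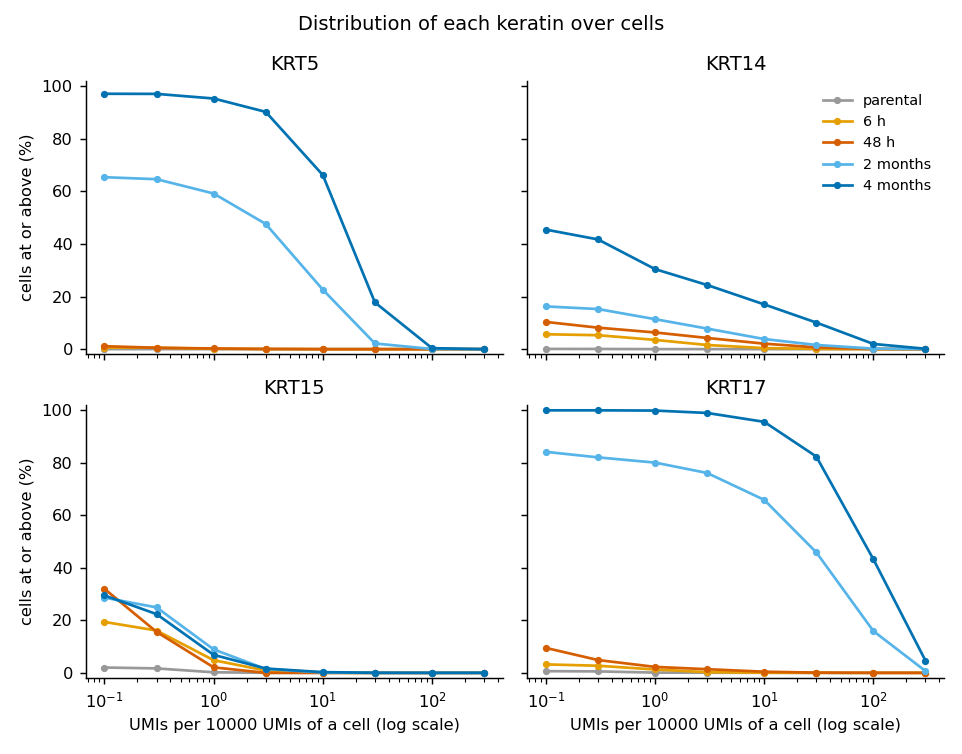
Share of cells (%) at or above each level, in UMIs per 10000 UMIs of a cell on a log scale, with 1 panel per keratin and 1 line per library. At 10 per 10000 the 4-month line stands at 95.5% of cells for KRT17, 66.2% for KRT5, 17.03% for KRT14 and 0.267% for KRT15.

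The concentration in few cells can be given as the share of a gene's UMIs held by the tenth of cells that were highest for it. At 4 months this was 31.0% for KRT17, 32.3% for KRT5, 67.6% for KRT15 and 84.0% for KRT14. At 2 months it was 45.8%, 46.4%, 62.2% and 97.9%. By this share KRT14 was the most unevenly held of the 4 in both late libraries. A gene with few UMIs, such as KRT15, also has a high share. At 48 h, 50 cells with at least 10 UMIs (4.35% of cells) held 95.7% of the KRT14 UMIs, and the 5 highest cells held 43.0%. Without those 5 cells KRT14 stood at 51.1 CPM at 48 h, and 14.2 at 6 h without its own top 5. KRT17 at 48 h rested on still fewer cells, as 16 cells with at least 10 UMIs held 87.2% of its UMIs, and without its 5 highest cells it stood at 10.2 CPM, against 2.38 at 6 h. The KRT5 level at 48 h was 0.194 CPM without its 5 highest cells and at 6 h 0.216, so no order of the early KRT5 levels is read.

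Early positive cells were looked for among barcodes that also occur in the 2- or 4-month library, since a shared barcode could carry late molecules. Of the 119 KRT14-positive cells at 48 h, 2 (1.68%) had such a barcode, against 1.17% of KRT14-negative cells. None of the 111 KRT14-positive cells at 6 h had one. Without the barcodes shared with a late library, KRT14 stood at 20.05 CPM at 6 h and 89.9 at 48 h. Of the 111 KRT17-positive cells at 48 h, 4 (3.60%) had a barcode of a late library, against 0.963% of KRT17-negative cells, and without the shared barcodes KRT17 stood at 27.5 CPM.

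Which keratins a cell held together was counted after thinning each cell to 3000 UMIs. Cells without any of the 4 made up 99.6% of the parental library, 92.5% after 6 h, 88.6% after 48 h, 21.5% after 2 months and 0.308% after 4 months. The 2-month share took in large-class cells, and within the small class it was 4.80%. Early positive cells mostly held 1 of the 4. At 48 h KRT14 alone was found in 4.75% of cells, KRT15 alone in 4.10%, KRT17 alone in 1.305% and KRT14 with KRT17 in 0.932%. At 2 months KRT5 with KRT17 was the commonest combination (38.0%), followed by KRT17 alone (24.1%) and KRT5 with KRT14 and KRT17 (6.43%). At 4 months these were 59.2%, 7.49% and 23.97%, and within the small class at 2 months 46.4%, 29.0% and 7.86%. The classical pair KRT5 and KRT14 thus occurred almost always with KRT17, which was itself found in 76.9% of all thinned cells at 2 months and 98.9% at 4 months. All 4 together were found in 0.526% of cells at 2 months and 1.02% at 4 months.

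**Figure D3:**
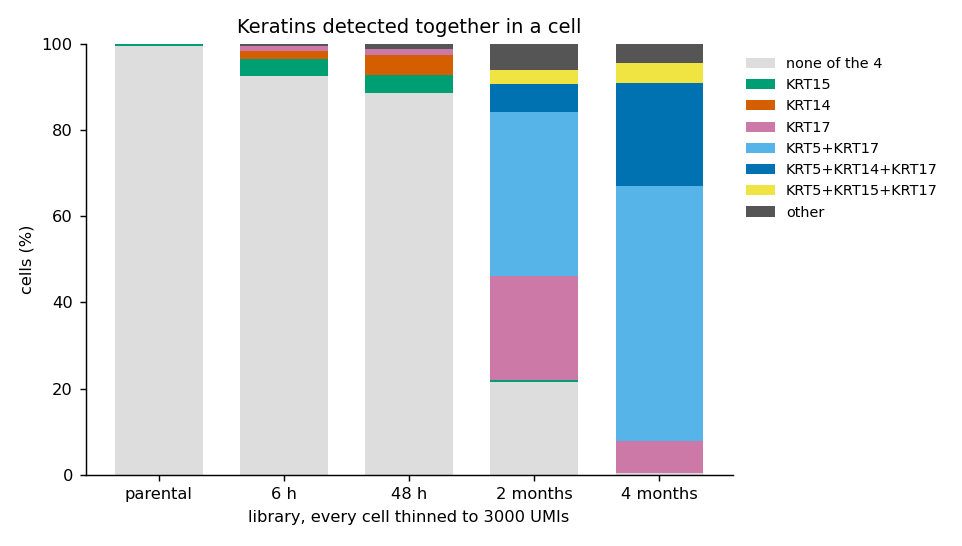
Cells (%) by the keratins detected together after thinning each cell to 3000 UMIs, 1 stacked bar per library. The light grey part, cells with none of the 4, goes from 99.6% in parental cells to 0.308% at 4 months, where KRT5 with KRT17 (59.2%) and KRT5 with KRT14 and KRT17 (23.97%) make up most cells.

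Pairwise co-expression is given as Pearson's r over cells of the natural log of 1 + UMIs per 10000, within 1 library. The cells share library and depth, so r is a description, and where a gene is sparse a small r is no finding. KRT5 and KRT17 went together most closely, with r of 0.68 at 2 months (3322 cells) and 0.46 at 4 months (4499 cells). Within the small class at 2 months r was 0.53. Nearly every KRT5-positive cell also held KRT17, 99.1% at 2 months and 99.9% at 4 months, whereas 77.1% of KRT17-positive cells held KRT5 at 2 months and 97.2% at 4 months. KRT17 was also found in 55.6% of the cells without KRT5 at 2 months and in 98.4% at 4 months, where nearly every cell held it.

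KRT14 followed KRT5 less closely than KRT17 did. For KRT5 and KRT14, r was 0.31 at 2 months and 0.15 at 4 months, and 513 of 540 and 2003 of 2046 KRT14-positive cells held KRT5. In the reverse direction 23.6% and 45.8% of KRT5-positive cells held KRT14. KRT5 was also found in 59.7% of the cells without KRT14 at 2 months and in 96.5% at 4 months. At 6 h and 48 h only 1 and 6 cells held both. For KRT14 and KRT17, r was 0.20 after 6 h, 0.37 after 48 h, 0.24 after 2 months and 0.0675 after 4 months. At 48 h 33 cells held both, 27.7% of the KRT14-positive cells, against 7.57% of the cells without KRT14. The parental r of 0.37 for this pair rested on 1 cell and was -0.00162 without it.

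For KRT15 at 4 months r was -0.11 with KRT14, -0.12 with KRT17 and -0.0495 with KRT5, and for so sparse a gene no opposition is read from these values. After thinning to 3000 UMIs, 47 cells at 4 months held both KRT14 and KRT15, where the product of the single shares gives 72.1. At 2 months the r of KRT15 with KRT17 was 0.11 over all cells and -0.0976 within the small class, so its sign rested on which classes were included.

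**Figure D4:**
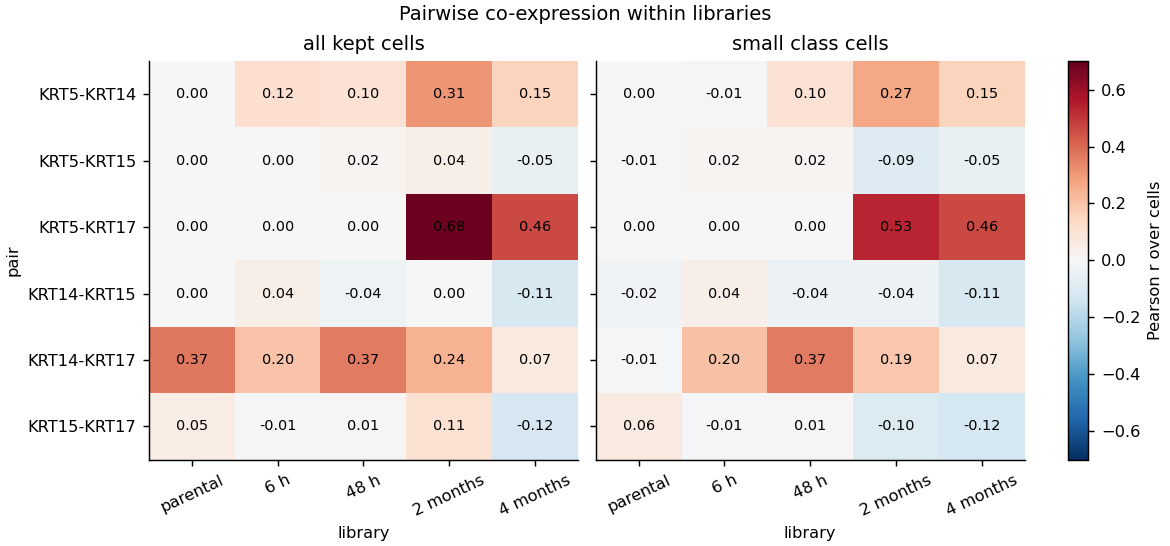
Pearson's r over cells for each pair of keratins (rows) in each library (columns), for all kept cells on the left and small-class cells on the right, with red for positive and blue for negative values. KRT5 with KRT17 is the strongest pair at 2 months (0.68) and 4 months (0.46), and the parental 0.37 of KRT14 with KRT17 is absent in the small class.

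Cells were also sorted by their KRT14 level. At 4 months, 766 cells had at least 10 KRT14 UMIs per 10000, 1280 had less and 2453 had none. KRT15 stood at 11.9, 20.03 and 29.8 CPM in these groups and KRT5 at 2226, 1660 and 1614 CPM. KRT17 hardly differed, with 9912, 10457 and 10036 CPM. At 2 months, within small-class cells, the same groups held 128, 409 and 2189 cells. KRT17 stood at 8570, 6377 and 5725 CPM in them, KRT5 at 1395, 954 and 673 CPM and KRT15 at 22.5, 21.4 and 31.3 CPM. In both late libraries KRT5 was thus highest, and KRT15 lower than in cells without KRT14, in the cells with most KRT14. For KRT15 at 2 months this held within the small class only. Over all kept cells at 2 months KRT15 stood at 22.5, 21.3 and 20.9 CPM from most KRT14 to none. The groups also differed in depth, with median UMIs of 33258, 29120 and 25661 at 4 months and 23205, 26918 and 18108 at 2 months. KRT15 was lower in deeper cells in general, as given below, and the part of depth in these differences was not tested.

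Within small-class cells, the keratin levels differed along lists of genes that hold no keratin. A 20-gene list of proliferation (MKI67, TOP2A, PCNA and others), a 25-gene list of suprabasal differentiation (IVL, SPRR genes, CNFN and others) and a 15-gene list of mesenchymal genes (VIM, FN1, ZEB1 and others) were each used to rank cells, and the highest 25% of cells were compared with the lowest 25% (681 cells each at 2 months, 1122 at 4 months). Such a group is a range of cells and not a cell type.

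KRT17 went with differentiation and against proliferation in both late libraries. In the highest and lowest 25% for differentiation it stood at 10879 and 3161 CPM at 2 months and at 17589 and 5234 at 4 months (log2 1.78 and 1.75). In the highest and lowest 25% for proliferation it stood at 3348 and 9661 CPM at 2 months and at 4728 and 14983 at 4 months (log2 -1.53 and -1.66). KRT5 had the same signs with smaller differences, 1.17 and 1.33 for differentiation and -0.58 and -0.86 for proliferation. The most proliferative 25% were also deeper, with median UMIs of 26291 against 15742 at 2 months and 35118 against 24786 at 4 months. Between the deepest and shallowest 25% by total UMIs, the log2 ratio of KRT17 was 0.27 at 2 months and -0.55 at 4 months.

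KRT14 had unlike ratios in the late libraries, a difference that was not tested. At 2 months it stood at 581 CPM in the 25% highest and 78.2 in the 25% lowest for differentiation (log2 2.88), and at 374 and 104 CPM in the highest and lowest 25% for the mesenchymal list (1.83). The 908 lowest cells for the mesenchymal list were tied at 0 of its UMIs, so which of them formed the lowest 25% was arbitrary. With each cell thinned to 3000 UMIs, the mesenchymal contrast was 245 and 124 CPM (0.98), and its lowest 25% were again tied at 0. At 4 months the log2 ratios with all UMIs were 0.74 for differentiation and -0.47 for the mesenchymal list. The KRT14 ratio for proliferation was -0.72 at 2 months and -0.01 at 4 months. For differentiation and the mesenchymal list, the share of KRT14-positive cells at 4 months went the other way from CPM. Thinned to 3000 UMIs, it was 23.5% in the highest and 32.9% in the lowest 25% for differentiation. For the mesenchymal list it was 35.9% and 20.97%, and for proliferation 37.9% and 23.5%. In both of these contrasts the lowest 25% held 0 UMIs of the list, so ties may have set which cells were taken. KRT15 had ratios of 0.54 and 1.07 for differentiation, -0.95 and -1.15 for proliferation, and 0.20 and -0.95 for the mesenchymal list. By total UMIs KRT15 was lowest in the deepest cells, at 18.7 CPM against 66.5 in the shallowest at 2 months and 13.3 against 53.4 at 4 months, a contrast larger than along any of the 3 lists.

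**Figure D5:**
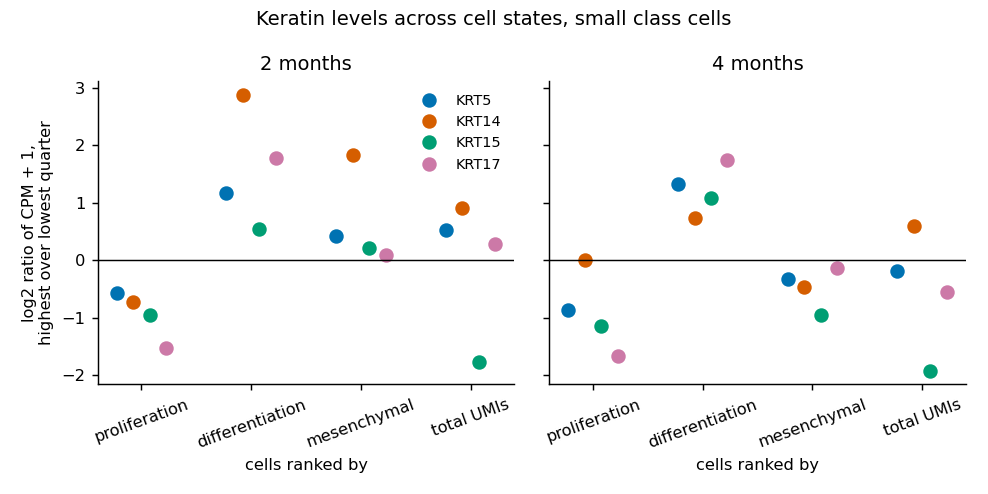
Log2 ratio of CPM + 1 between the highest and lowest 25% of small-class cells, ranked by each gene list or by total UMIs, at 2 months (left) and 4 months (right), with 1 point per keratin and no error bars because there is no replicate. KRT17 lies at -1.53 and -1.66 for proliferation, and KRT14 goes from 2.88 to 0.74 for differentiation.

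The share of the whole keratin family taken by the 4 members differed more than 100-fold between the culture and the late libraries. Keratin genes (54 in the table) made up 0.205% of all UMIs in parental cells, 1.16% after 6 h, 1.49% after 48 h, 1.45% after 2 months and 2.30% after 4 months. The 4 members held 0.0790% of keratin UMIs in culture, 0.396% after 6 h, 0.872% after 48 h, 35.3% after 2 months and 56.3% after 4 months. KRT17 alone held 44.2% at 4 months, KRT5 7.62%, KRT14 4.38% and KRT15 0.102%. The early libraries therefore had a higher total of keratin than the whole culture, with little of the basal kind. In the parental small class keratin genes made up 0.9501% of all UMIs, and the 4 members held 0.0955% of keratin UMIs. The totals at 6 h and 48 h were thus closer to that of the small class than to that of the whole culture. Type I UMIs exceeded type II UMIs in each library, by a factor of 1.67 at 6 h to 3.93 in parental cells. For each KRT5 UMI there were 8.17 UMIs of KRT14, KRT15 and KRT17 at 2 months and 6.39 at 4 months.

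Other keratins filled that total in the early libraries. The simple epithelial keratins KRT8 and KRT18, partners in single-layered epithelia, stood at 4831 and 5646 CPM at 48 h, 901 and 1599 at 2 months and 594 and 1110 at 4 months. Of 4 measured members of the 5-gene simple keratin list, 3 (KRT7, KRT8 and KRT18) were at least 2-fold lower at 2 months than at 48 h (13.0% of all genes), and KRT19 stood at 3358 CPM at 48 h and 3260 at 2 months. Large-class cells entered these 2-month levels. The wound keratins KRT6A, KRT6B and KRT16 were at least 2-fold higher at 4 months than in parental cells, 3 of 3 measured of 4 (13.4% of all genes), with a median log2 ratio of 8.49 against -0.44 for all genes. KRT6A, a type II partner of KRT16 and KRT17, stood at 5.55, 578, 97.5, 2524 and 3969 CPM from parental cells to 4 months. KRT6A was thus more abundant than KRT5 in every library and was already high at 6 h, when KRT17 stood at 5.38. KRT16 shared 15.7% of its 50-base windows with other genes, KRT17 and KRT16 pseudogenes among them.

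Suprabasal keratins were measurable for 5 of 11 genes, of which 4 were at least 2-fold higher at 4 months than in parental cells (13.4% of all genes) and none lower (30.0%), with a median log2 ratio of 2.67. Over the parental small class 2 of 5 were higher (8.15% of all genes). KRT4, of the upper layers of the esophagus, stood at 0.385 CPM at 48 h, 97.9 at 2 months and 45.2 at 4 months, and its partner KRT13 at 11.6, 48.2 and 16.9. KRT13 was highest at 6 h, with 221 CPM. KRT10 stood between 372 and 443 CPM in all 5 libraries. In the rest of the keratin family, 50 genes, 12 were measurable at 4 months over parental cells. Of these, 8 were higher (13.4% of all genes) and 1 lower (30.0%). Over the small class 6 of 12 were higher (8.15% of all genes) and 3 lower (14.2%).

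Within small-class cells at 2 months, several other keratins differed in steps with KRT17. From 83 cells under 1 KRT17 UMI per 10000 through 458 and 1657 to 528 cells with at least 100, KRT5 stood at 37.6, 194, 778 and 1260 CPM, KRT14 at 0, 20.7, 234 and 430 CPM and KRT6A at 363, 1282, 3090 and 6943 CPM. KRT18 stood at 2862, 2551, 2249 and 1501 CPM in the same groups and KRT8 at 2064, 1481, 1227 and 917. KRT15 stood at 51.6, 33.7, 29.5 and 20.9 CPM. KRT5, KRT14 and KRT6A thus stood higher, and KRT8, KRT18 and KRT15 lower, in each group with more KRT17. KRT19 ranged from 5180 to 4333 CPM.

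The anchors of basal cells went against KRT5 and KRT17 from 48 h to 2 months. The list held 12 genes of hemidesmosomes and their laminin ligand, with 11 measurable. At 4 months over parental cells 10 of 11 were at least 2-fold higher (13.4% of all genes) and none lower (30.0%), with a median log2 ratio of 1.91. Over the parental small class 1 of 11 was higher at 4 months (8.15% of all genes) and none lower (14.2%), with a median of -0.15 against -0.22 for all genes. At 2 months, with its large-class cells included, 7 of 11 were lower than in the small class (6.58% of all genes) and none higher (9.55%). From 48 h to 2 months, when KRT5 and KRT17 differed most, 9 of 11 were at least 2-fold lower (13.0% of all genes) and none higher (median -1.98, against -0.05 for all genes). At 4 months over 2 months 4 of 11 were higher (3.03% of all genes) and none lower, with a median of 0.84 against -0.24. Both steps took in the large-class cells at 2 months, and their part in the differences was not tested. COL17A1, a hemidesmosome collagen, stood at 134 CPM at 48 h, 15.2 at 2 months and 45.2 at 4 months, and ITGB4, the integrin that binds plectin, at 299, 183 and 318.

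Regulators of squamous epithelia were measurable for 19 of 20 genes at 4 months over parental cells, with 15 at least 2-fold higher (13.4% of all genes) and 1 (FOXM1) lower (30.0%), at a median log2 ratio of 2.06. Over the parental small class 7 of 18 were higher (8.15% of all genes) and 1 lower (14.2%). TP63, the p53 family factor of basal cells that is known to act on KRT5 and KRT14, stood at 2.62, 23.3, 15.5, 28.2 and 42.6 CPM from parental cells to 4 months, and at 16.9 in the small class. ZNF750, a factor of epidermal differentiation, stood at 0.0427 CPM or less through 48 h, at 13.9 at 2 months and at 41.8 at 4 months. SOX2 stood at 1.60 CPM at 48 h, 71.4 at 2 months and 21.3 at 4 months. From 48 h to 2 months, with large-class cells included, 4 of 19 regulators were higher (12.2% of all genes) and 4 lower (13.0%).

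The genes most like each keratin over cells were named by the mean r within small-class cells of the 4 lung libraries, among 1780 genes with at least 50 CPM in each. This limit left out the 4 members themselves and other genes that were low in an early library. For KRT5 the 5 highest were KRT6A (mean r 0.31), S100A2 (0.19), SFN (0.19), HSPB1 (0.17) and LAD1 (0.16), and for KRT17 they were KRT6A (0.31), HSPB1 (0.26), PERP (0.25), SFN (0.22) and LYPD3 (0.21). The lists for KRT5 and KRT17 shared KRT6A, SFN and HSPB1. For KRT14 the highest were S100A2 (0.27), SFN (0.25), CAV1 (0.21), FGFBP1 (0.21) and KRT6A (0.20). Those of KRT15 were different, namely KRT19 (0.22), ELF3 (0.17), GSN (0.17), CLDN4 (0.16) and LMO7 (0.16).

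The lowest for KRT5 were ELF3 (-0.12), KRT8 (-0.12) and LMO7 (-0.11), so ELF3 and LMO7 were at opposite ends for KRT5 and KRT15. The lowest for KRT17 were the chromatin genes DEK (-0.19), HMGN2 (-0.18) and H2AFZ (-0.18). Those for KRT14 were MGST1 (-0.17), H3F3A (-0.17) and S100A4 (-0.17), and those for KRT15 EIF5A (-0.12), RPLP1 (-0.12) and YBX1 (-0.11). These means take in the early libraries, where the keratins were sparse. The r of KRT17 with KRT6A was 0.0970 at 6 h and 0.0997 at 48 h, against 0.52 at 2 months and 0.53 at 4 months. The r of KRT15 with KRT19 was 0.14, 0.18, 0.24 and 0.32 in these libraries.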

How the data were processed

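The authors deposited, for each of the 5 libraries, raw counts of UMIs for every gene in the barcodes called as cells, neither normalized nor filtered for quality. Per the labels, cells were prepared with 10x Genomics 3′ chemistry, and the submitters' processing notes name Cell Ranger 3 and GRCh38. The other deposited columns hold barcodes and gene identifiers.

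Cells had to hold 200 to 8000 genes and 1000 or more UMIs, with mitochondrial UMIs up to 15%. CPM were computed from UMIs summed over cells, with exact Poisson intervals, and log2 ratios had 1 CPM added. Shares had exact binomial (Clopper-Pearson) intervals at 95%, and cells were thinned at random to 1000 or 3000 UMIs, the latter leaving out 76 (48 h) to 281 (4 months) cells per library. Small- and large-class cells had at least 5 UMIs of the class genes and a fraction of small-class UMIs above or below 0.5. Doublets were kept. The members, lists and rules were chosen with earlier results of these data known. Named are the 4 members, members of the lists apart from 1 not reported here, and the 5 highest and 3 lowest genes by mean r. Positions are from GENCODE annotation on GRCh38. Python 3.11.15 with numpy 2.4.6, scipy 1.17.1, pandas 2.3.3 and matplotlib 3.10.9 was used, and the computations were tested on simulated data. No test was run, since cells are not replicates.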

Additional observations from a re-analysis of the deposited data

How the results depend on the processing

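No paired analysis was possible because each stage is 1 library and the labels give replicate 1 to all. Among the values recomputed under alternatives, 432 stayed close to the reported value, 113 moved and 7 changed sign, counted only for correlations of at least 0.1 in size and log2 ratios of at least 1. Of the 16 log2 ratios to parental cells, 14 were at least 1, and 13 to 16 under the alternatives, among them no quality filter, a 10% mitochondrial limit, cells of equal weight, no cells under 1% mitochondrial UMIs, no shared barcodes and median-of-ratios scaling, which moved all ratios to parental cells by 0.17 at 6 h and 0.38 at 4 months. At 4 months the KRT15 ratio ranged from 1.62 (against the small class) to 4.32 and the KRT17 ratio from 10.85 to 14.07. Of 20 shares thinned to 1000 UMIs, 5 were at least 10%, and 11 with all UMIs. Of 30 correlations 11 were at least 0.1, and 7 by Spearman's rho at 3000 UMIs. Signs changed for KRT5 with KRT14 at 48 h (-0.00756 by Spearman and -0.00659 by Pearson at 3000 UMIs) and at 6 h (-0.0132 in the small class, -0.0131 without the cell with most UMIs of the pair), for KRT14 with KRT17 in parental cells (-0.00861 in the small class, -0.00162 without 1 cell) and for KRT15 with KRT17 at 2 months (-0.0976 in the small class). The cause was not tested. Leaving out shared barcodes, the 5 cells with most UMIs of a gene, or the 1 cell of a pair, and sorting only small-class cells by KRT14, were added after seeing the data. Levels of KRT5 before 2 months rest on few counts, with 1 to 47 UMIs per library.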

Other observations

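Genes of the basal cell surface and of Notch signaling, 16 in a list, were measurable for 12 at 4 months over parental cells, with 9 at least 2-fold higher (13.4% of all genes) and 2 lower (30.0%), at a median log2 ratio of 2.22. Over the parental small class 11 were measurable, with 5 higher (8.15% of all genes) and 1 lower (14.2%). The Notch ligand JAG1 stood at 26.2 CPM in the small class, 73.6 after 6 h, 63.9 after 48 h, 183 after 2 months and 166 after 4 months, and the receptor NOTCH3 at 7.09, 7.99, 3.21, 33.3 and 48.2 CPM. These were higher at 2 months than at 48 h, as KRT5 and KRT17 were. EGFR and CAV1 differed the other way, with 707 and 1161 CPM at 48 h and 195 and 87.0 at 2 months. The 2-month levels took in large-class cells.

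Barcodes above 15% mitochondrial UMIs, left out of the levels, held the same keratins in other proportions. Totals for CPM include mitochondrial UMIs, a larger part in these barcodes, which lowers the CPM of all other genes there. The size of this effect was not tested. At 4 months (1647 such barcodes) KRT17 stood at 5900 CPM against 10139 in kept cells, KRT14 at 527 against 1006, KRT5 at 1526 against 1749 and KRT15 at 32.7 against 23.3. At 2 months (2653 barcodes) KRT17 stood at 2762 against 4353 CPM, KRT14 at 76.3 against 170, KRT5 at 402 against 556 and KRT15 at 35.6 against 21.03. KRT15 was thus the member with the higher CPM in these barcodes in both late libraries.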
